A study of Mus musculus with 15 samples.

Results

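The 4 genes described here, Arntl, Arntl2, Clock and Npas2, encode the activating transcription factors of the mouse circadian clock, and they were taken by name from a table of 24419 genes. All 4 passed the filter on low counts that left 16910 genes for testing. Gene counts came from RNA sequencing of punches of the suprachiasmatic nucleus (SCN), the small hypothalamic nucleus that holds the master circadian pacemaker, with 2 to 4 punches pooled for each library. All mice were C57BL/6 animals of 8 to 12 weeks. Libraries labelled REV-ERBS DKO, from mice lacking both REV-ERB receptors (called DKO here), were set against libraries labelled control. Tissue was collected at circadian time (CT) 4 h, in the subjective day, or CT 16 h, in the subjective night. Control libraries numbered 3 at CT4 and 5 at CT16, and DKO libraries 3 and 4. The sources used here give no Cre driver, no alleles and nothing on the genotype of the control mice beyond that word, so which SCN cells lost the receptors is not stated.

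Arntl encodes BMAL1, which binds DNA as a pair with CLOCK, or with the CLOCK relative NPAS2, at E-box sequences of Per, Cry, Nr1d and many output genes. PER and CRY proteins then hold these pairs in check. REV-ERBα (Nr1d1) and REV-ERBβ (Nr1d2) bind ROR elements, recruit the NCoR and HDAC3 corepressor, and are known for repressing Arntl, Npas2 and Clock, while ROR receptors activate through the same sites. Arntl2 encodes BMAL2, a paralogue of BMAL1 that can also pair with CLOCK. In the forebrain NPAS2 is the better known partner of BMAL1, and in the SCN it can stand in for CLOCK.

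The promoters of the 4 genes are shown because REV-ERB is known to act on several of them through ROR elements near the start site. RefSeq gives 7 windows for the 4 genes on GRCm38.p6, the assembly also called mm10, each of 300 bases from 250 before to 50 after an annotated start. The Arntl window at chr7:113207261-113207560 (plus strand) held the ROR element core TAGGTCA, whose first base lies 30 bases after that start. The motif was searched on both strands, and 2.606% of 32851 promoter windows of the same length hold it. The Arntl promoter is known for a pair of ROR elements. After the sequence had been read, the letters AAAGTAGG were therefore added to the search, and they occur in this window at bases -10 and 26 from the start, the second copy overlapping TAGGTCA. One or more copies of AAAGTAGG stand in 0.8158% of promoter windows and 2 copies in 0.009132%. Because the letters were chosen from this window, their presence here was fixed in advance, and these shares are description only. No other member window held TAGGTCA, and none held TGGGTCA (3.979% of windows), the E-box CACGTG (7.15%), the E prime box CACGTT (4.685%) or the D-box TTATGNAA (3.385%), which says only that these letters are not in these windows. One window per gene is printed 5′ to 3′ on the gene's strand, for Npas2 chr1:39194022-39194321 (plus), for Clock chr5:76304743-76305042 (minus) and for Arntl2 chr6:146805280-146805579 (plus). Capitals mark the matches to TAGGTCA and AAAGTAGG.
Arntl: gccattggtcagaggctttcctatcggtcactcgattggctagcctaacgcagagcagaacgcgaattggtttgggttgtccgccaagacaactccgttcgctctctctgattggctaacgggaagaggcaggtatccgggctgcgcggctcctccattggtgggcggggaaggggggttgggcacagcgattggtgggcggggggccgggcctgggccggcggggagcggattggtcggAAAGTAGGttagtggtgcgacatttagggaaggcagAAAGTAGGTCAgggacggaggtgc
Npas2: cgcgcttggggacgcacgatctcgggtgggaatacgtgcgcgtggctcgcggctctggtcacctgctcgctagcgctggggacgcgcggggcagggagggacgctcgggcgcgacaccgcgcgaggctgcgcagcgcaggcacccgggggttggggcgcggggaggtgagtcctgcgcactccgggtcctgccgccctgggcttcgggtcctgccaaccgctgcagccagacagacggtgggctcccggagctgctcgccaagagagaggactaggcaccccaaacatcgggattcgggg
Clock: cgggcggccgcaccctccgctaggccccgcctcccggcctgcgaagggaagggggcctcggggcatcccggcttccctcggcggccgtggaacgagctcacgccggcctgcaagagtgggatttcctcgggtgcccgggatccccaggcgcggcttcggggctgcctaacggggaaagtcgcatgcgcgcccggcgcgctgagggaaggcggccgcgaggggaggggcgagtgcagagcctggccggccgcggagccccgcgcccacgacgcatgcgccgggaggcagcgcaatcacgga
Arntl2: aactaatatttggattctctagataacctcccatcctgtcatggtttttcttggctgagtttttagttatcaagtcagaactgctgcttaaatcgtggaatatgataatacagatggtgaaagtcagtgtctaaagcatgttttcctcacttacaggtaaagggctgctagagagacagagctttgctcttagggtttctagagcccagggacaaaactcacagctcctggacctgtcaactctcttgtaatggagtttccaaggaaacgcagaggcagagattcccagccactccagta
The windows differ in base composition: G and C make up 61.7% of the Arntl window, 72.7% of the Npas2 window and 76.3% of the Clock window, against 43.3% in Arntl2 and a median of 52.7% over all windows. CpG pairs number 22, 37, 42 and 2 in the same order, against a median of 7.

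In the mm10 coordinates of the deposited table, Arntl spans bases 113207465 to 113314126 of chromosome 7 (plus strand, 20 exon blocks) and Npas2 spans 39194272 to 39363240 of chromosome 1 (plus strand, 21 blocks). Clock lies at 76209868 to 76304792 of chromosome 5 (minus strand, 24 blocks) and Arntl2 at 146805530 to 146833529 of chromosome 6 (plus strand, 15 blocks). Counts sum all exons of a gene, introns left out. No exon of another gene of the table overlaps one of theirs. In the GENCODE annotation an antisense gene, Gm45355, overlaps an Arntl exon by at most 33 bases, and the sources used here do not say whether reads were counted by strand.

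Total counts ran from 32580803 to 68757624 per library, and each member had between 426 (Arntl2) and 9598 (Clock) counts in a library. Summed exon counts of the targeted receptors were not lower in DKO: Nr1d1 stood at 226 to 252 CPM (counts scaled to library size) in DKO and 198 to 282 in control at CT4, and at 241 to 378 and 135 to 150 CPM at CT16. A transcript with part of its exons deleted would still be counted, and the genotype labels could not be checked this way. All 16 SCN markers were detected in every library, Avp and Vip among them. One library, DKO CT16 replicate 3, stood apart: its SCN marker score (the mean over the 16 markers of log2 CPM minus the marker's mean over all libraries) was -0.46, against 0.15 to 0.74 in the other 3 of its group. Its score for 20 markers of neighbouring hypothalamic nuclei was 0.78, against -1.26 to -0.55. DKO CT16 replicate 4 had the highest score for 12 myelin markers of all libraries, 1.40, and control CT4 replicate 1 had a lower SCN score (-0.23) than the other 2 of its group (0.57 and 0.64). Libraries are pools of punches whose animals are not named, and each p-value therefore rests on the variation from pool to pool, part of which may be technical. In bulk tissue, fewer cells of a type and less RNA per cell cannot be told apart.

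Arntl, the gene for BMAL1, was higher in DKO at both times. At CT4 its expression was 41.1, 43.0 and 39.2 CPM in the control libraries and 63.2, 66.6 and 63.3 CPM in the DKO libraries. At CT16 it was 39.2, 44.2, 38.0, 35.1 and 27.5 CPM in control and 79.6, 92.6, 63.4 and 98.4 CPM in DKO. Every DKO library lay above every control library of the same time. The DKO group at CT16 was the most spread out (83.5 ± 15.5 CPM, SD, n = 4), and its lowest value belonged to replicate 3, the library with the low SCN score. The lowest control value at CT16, in replicate 5, also went with the lowest SCN score of its group (-0.43). At CT16 Arntl rose 2.27-fold in DKO, a log2 change of 1.18 ± 0.13 (SE; 95% interval 0.90 to 1.46) with an adjusted p of 0.000112 in edgeR's quasi-likelihood test. At CT4 the log2 difference was 0.65 ± 0.16 (interval 0.30 to 0.99), and it did not pass (adjusted p = 0.0661). That miss was narrow and depended on the setting: the CT4 difference passed in 9 of 26 alternatives, among them DESeq2 (adjusted p = 0.00278), limma voom (0.00697), the fit without control CT16 replicate 5 (0.0328) and the fit without DKO CT16 replicate 3 (0.0239). The spread of those CT16 libraries enters the CT4 test because all 4 groups share 1 estimate of variance.

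**Figure D1:**
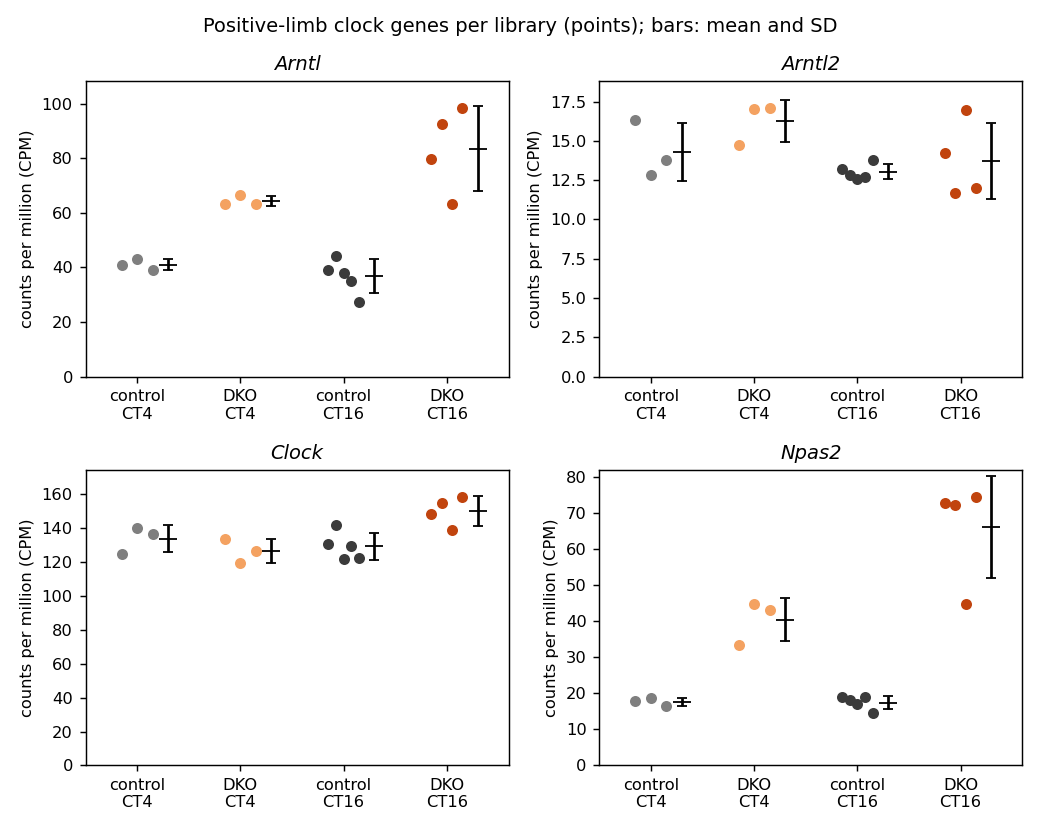
Expression of Arntl, Arntl2, Clock and Npas2 in each of the 15 libraries (points; y axis, CPM from 0) by genotype and circadian time, with the mean and SD of each group beside the points. Arntl and Npas2 sit higher in DKO than in control at both times with no overlap, while the points of Arntl2 and Clock overlap between genotypes at both times.

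Npas2, which encodes the alternative partner of BMAL1, had the largest fitted change of the 4 between genotypes at both times. Control libraries held a narrow band of 17.8, 18.6 and 16.5 CPM at CT4 and 18.9, 18.0, 17.1, 18.9 and 14.4 CPM at CT16. DKO libraries held 33.5, 44.7 and 43.3 CPM at CT4 and 73.0, 72.4, 45.0 and 74.7 CPM at CT16. No DKO library overlapped the controls, and DKO CT16 replicate 3 was again the lowest of its group, close to the CT4 libraries. Npas2 rose 2.29-fold in DKO at CT4 (log2 change 1.20 ± 0.17, interval 0.83 to 1.57, adjusted p = 0.00666) and 3.79-fold at CT16 (1.92 ± 0.14, interval 1.62 to 2.22, adjusted p = 3.07e-06). The CT4 call was lost in 1 of 26 alternatives, on leaving out control CT4 replicate 3 (log2 change 1.15, adjusted p = 0.0592). At CT16 the call held in all 26 alternatives. By p-value Npas2 ranked 18 of 16910 genes at CT4 and 10 of 16910 at CT16.

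Clock, whose protein is the usual partner of BMAL1, moved far less. At CT4 its level was 124.7, 139.8 and 136.5 CPM in control and 133.6, 119.3 and 126.2 CPM in DKO, and the groups overlapped. At CT16 control libraries stood at 130.4, 141.6, 122.0, 129.5 and 122.5 CPM and DKO libraries at 148.1, 154.8, 138.6 and 158.6 CPM. There 3 of the 4 DKO libraries lay above all controls and replicate 3 did not. Clock rose by 0.22 ± 0.06 on the log2 scale at CT16 (1.16-fold, interval 0.10 to 0.33, adjusted p = 0.0345). At CT4 the difference was -0.08 ± 0.07 (interval -0.22 to 0.06, adjusted p = 0.623). The CT16 call is a fragile one: it was lost in 12 of 26 alternatives, including the leaving out of DKO CT4 replicate 3, of control CT16 replicate 1, 3, 4 or 5, or of DKO CT16 replicate 2 or 4, where the log2 change was 0.19 to 0.22 and the adjusted p 0.0535 to 0.115.

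Arntl2, the gene for BMAL2, did not pass in any genotype comparison. At CT4 its level was 16.3, 12.8 and 13.8 CPM in control and 14.8, 17.0 and 17.1 CPM in DKO. At CT16 the values were 13.2, 12.8, 12.6, 12.7 and 13.8 CPM in control and 14.2, 11.7, 17.0 and 12.0 CPM in DKO. Genotypes overlapped at both times, and the highest DKO value at CT16 was that of replicate 3, which was the lowest for the other 3 genes. The log2 difference was 0.19 ± 0.13 at CT4 (interval -0.08 to 0.46, adjusted p = 0.531) and 0.08 ± 0.10 at CT16 (interval -0.14 to 0.30, adjusted p = 0.715).

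Of the 4 genes, then, 1 rose at CT4 and 3 rose at CT16. Over all genes tested, 1.28% were called in either direction at CT4 and 0.574% were called higher; at CT16 the shares were 4.66% and 2.83%. The median log2 change over all genes tested was -0.0023 at CT4 and 0.0022 at CT16. Non-overlap by itself was common: 25.4% of genes did not overlap between genotypes at CT4 and 6.97% at CT16, against 2 of the 4 members each time.

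**Figure D2:**
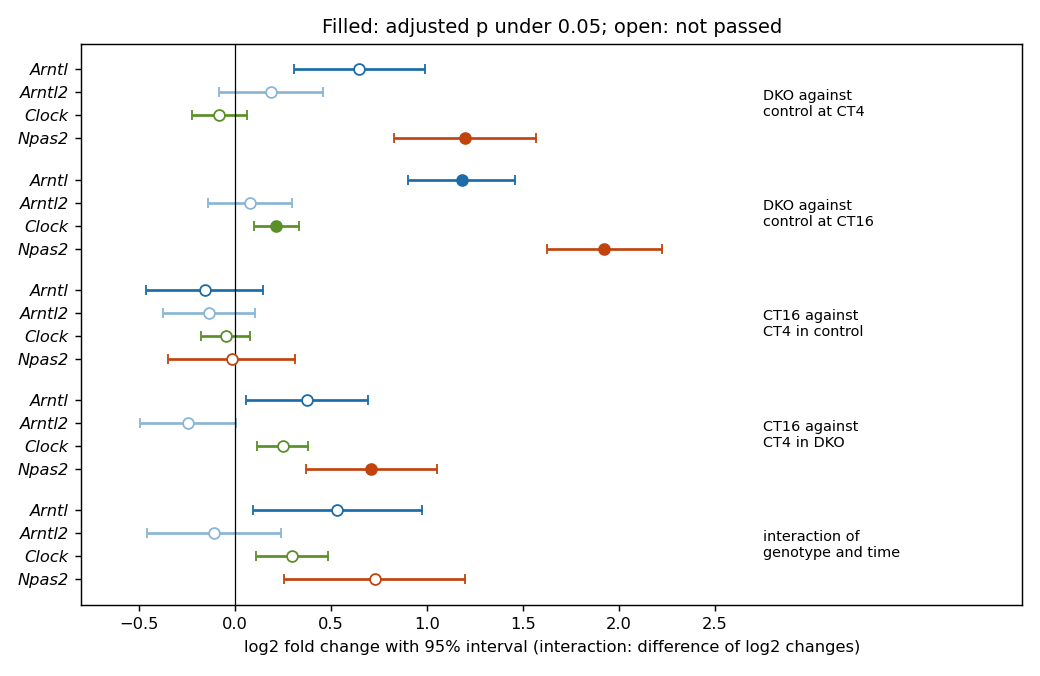
Fitted log2 fold change (x axis; for the interaction, the difference of 2 log2 changes) with its 95% interval for the 4 genes in each of 5 comparisons. Filled points passed an adjusted p of 0.05: Npas2 at CT4, Arntl, Clock and Npas2 at CT16, and Npas2 between times in DKO.

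None of the 4 genes passed the test between times in control libraries. From CT4 to CT16 the log2 difference in control was -0.16 ± 0.14 for Arntl (interval -0.46 to 0.15), -0.13 ± 0.11 for Arntl2, -0.05 ± 0.06 for Clock and -0.02 ± 0.15 for Npas2 (interval -0.35 to 0.31), with adjusted p from 0.549 to 0.963 in edgeR's test. No member was called by DESeq2 or limma voom either, and 0 of 4 had an unadjusted p under 0.05, while 4.21% of all genes tested were called. These are 2 time points only, so a rhythm whose phases at CT4 and CT16 happen to be level would not show. The groups overlapped for all 4, and 15.8% of all genes did not overlap.

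In DKO libraries Npas2 was higher at CT16 than at CT4. It rose 1.63-fold (log2 change 0.71 ± 0.16, interval 0.37 to 1.05, adjusted p = 0.0380), and every CT16 library lay above every CT4 library, if barely: the lowest at CT16 was 45.0 CPM, in replicate 3, and the highest at CT4 was 44.7 CPM. With the replicate number as a block, which may or may not be a pairing, the change was 0.65 and the call was lost (adjusted p = 0.0815). Leaving out any 1 of 12 libraries also lost it, namely each of the 3 control CT4, 3 DKO CT4, control CT16 replicates 1, 3 and 4, and DKO CT16 replicates 1, 2 and 4, with log2 changes of 0.59 to 0.79 and adjusted p of 0.0511 to 0.127. Without DKO CT16 replicate 3 the change was 0.86 (adjusted p = 0.000242). Clock differed by 0.25 ± 0.06 (interval 0.11 to 0.38) with no overlap between times and an adjusted p of 0.0563, just outside the threshold. Arntl differed by 0.37 ± 0.15 (adjusted p = 0.2002) and Arntl2 by -0.24 ± 0.12 (adjusted p = 0.283). Of all genes tested, 1.8% were called between times in DKO, 1.29% were called higher and 14.7% did not overlap.

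Without DKO CT16 replicate 3, all 4 members passed between times in DKO, in a fit that called 1461 of 16824 genes (8.68%) against 304 of 16910 with that library. Arntl then rose by 0.49 (adjusted p = 0.0298), Clock rose by 0.28 (0.0131) and Arntl2 fell by 0.36 (0.0427) on the log2 scale. Without control CT16 replicate 2, Clock also passed (log2 change 0.25, adjusted p = 0.0410). The time comparisons use the same libraries as the genotype comparisons, so they are not separate evidence.

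Whether the genotype difference itself changed with time was tested as an interaction, and no member passed in edgeR, though 3 of 4 had an unadjusted p under 0.05. The log2 difference grew from CT4 to CT16 by 0.73 ± 0.22 for Npas2 (unadjusted p = 0.00531, adjusted p = 0.168 in edgeR's test), 0.30 ± 0.09 for Clock (0.00369, adjusted 0.156) and 0.53 ± 0.21 for Arntl (0.0212, adjusted 0.250). For Arntl2 it was -0.11 ± 0.16 (adjusted p = 0.772). Over all genes, edgeR called 0.0118% in the interaction, and 15.1% had an unadjusted p under 0.05. DESeq2 called 1 member, Npas2 (adjusted p = 0.0415), and 2.13% of all genes. Limma voom also called 1 member, Clock (adjusted p = 0.0416), and 2.48% of all genes. Without DKO CT16 replicate 3 the Npas2 interaction was 0.88 and passed (adjusted p = 0.0105). That fit called 298 of 16824 genes in the interaction, against 2 of 16910 with that library. With the SCN score as a covariate the interaction was 0.32 for Npas2, 0.08 for Clock and 0.09 for Arntl, and with myelin and neighbouring-nuclei scores 0.21, 0.15 and 0.14. In neither of these fits did a member have an unadjusted p under 0.05. The share over all genes was lower there too, 5.52% with the SCN score and 8.85% with the myelin and neighbouring-nuclei scores. These marker scores are described with the marker genes of the SCN and its neighbours.

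Marker genes of the SCN and its neighbours differed between groups. SCN scores of the 3 DKO CT4 libraries, -0.45 to -0.33, lay below those of all 3 CT4 controls, -0.23 to 0.64, and their neighbouring-nuclei scores were higher, 0.41 to 1.00 against -1.07 to 0.37. Summed over the list, the 16 SCN markers reached 1602 to 1716 CPM in DKO and 1820 to 2045 CPM in control at CT4, and 1546 to 2586 CPM in DKO and 1201 to 1980 CPM in control at CT16. The 20 markers of neighbouring nuclei summed to 1031 to 1120 CPM in DKO and 551 to 997 CPM in control at CT4, and to 514 to 993 CPM and 887 to 1223 CPM at CT16. One marker, Kiss1, was at 0 in 1 library. None of the 16 SCN markers was called at CT4, where 14 estimates were below 0, and 2 rose at CT16, Rgs16 and Rasl11b. Both are known for a daily rhythm in the SCN. Of the other marker lists, 2 of 10 astrocyte genes rose and 1 fell at CT16. There 1 of 12 endothelial and ependymal genes rose and no myelin or microglial gene was called, against 4.66% of all genes tested. At CT4 none of these 4 lists held a called gene, against 1.28% of all genes. At CT16, however, 12 of 12 myelin and 10 of 10 microglial estimates lay above 0, with median log2 changes of 0.69 and 0.20, and the 12 myelin genes summed to 4033 to 20089.7 CPM in DKO and 3090 to 9831 CPM in control. As deviations from the group means, the myelin score and the members' log2 CPM had r of 0.75 for Arntl, 0.60 for Clock, 0.43 for Npas2 and -0.44 for Arntl2 over the 15 libraries. From CT4 to CT16 in DKO, 15 of 16 SCN estimates lay above 0 and 15 of 20 neighbouring-nuclei estimates below 0. None of them was called, against 1.8% of all genes. In control, 14 of 16 SCN estimates lay below 0 and 14 of 20 neighbouring-nuclei estimates above 0. There 3 SCN markers fell and 3 neighbouring-nuclei markers rose, against 4.21% of all genes called.

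Within groups, each library's deviation from its group mean ran with its SCN score for Clock (Pearson r = 0.87), Arntl (0.73) and Npas2 (0.60), and against it for Arntl2 (-0.84). The sign turned for the score of neighbouring nuclei: -0.67, -0.72, -0.79 and 0.76. These are descriptions over 15 libraries that share 4 groups and 1 normalization. With the SCN score as a covariate, an alternative chosen after the data were seen, the genotype change of Arntl was 0.93 at CT4 (adjusted p = 0.00528), that of Clock at CT16 was 0.14 (0.0621) and that of Npas2 between times in DKO was 0.46 (0.303). With myelin and neighbouring-nuclei scores as covariates, Arntl at CT4 was 0.83 (0.000571), Clock at CT16 0.14 (0.0804) and Npas2 between times 0.37 (0.268). The CT16 rises of Npas2 and Arntl stayed past the threshold in all 26 alternatives, at 1.71 and 0.97 or more. The SCN list holds rhythmic genes called higher in DKO at CT16, Rgs16 and Rasl11b, so its score can take up part of a genotype or time difference. At CT4 neither the SCN nor the neighbouring-nuclei scores overlapped between genotypes. There these fits cannot tell tissue content and genotype apart. The part of tissue content in these changes was not tested.

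**Figure D3:**
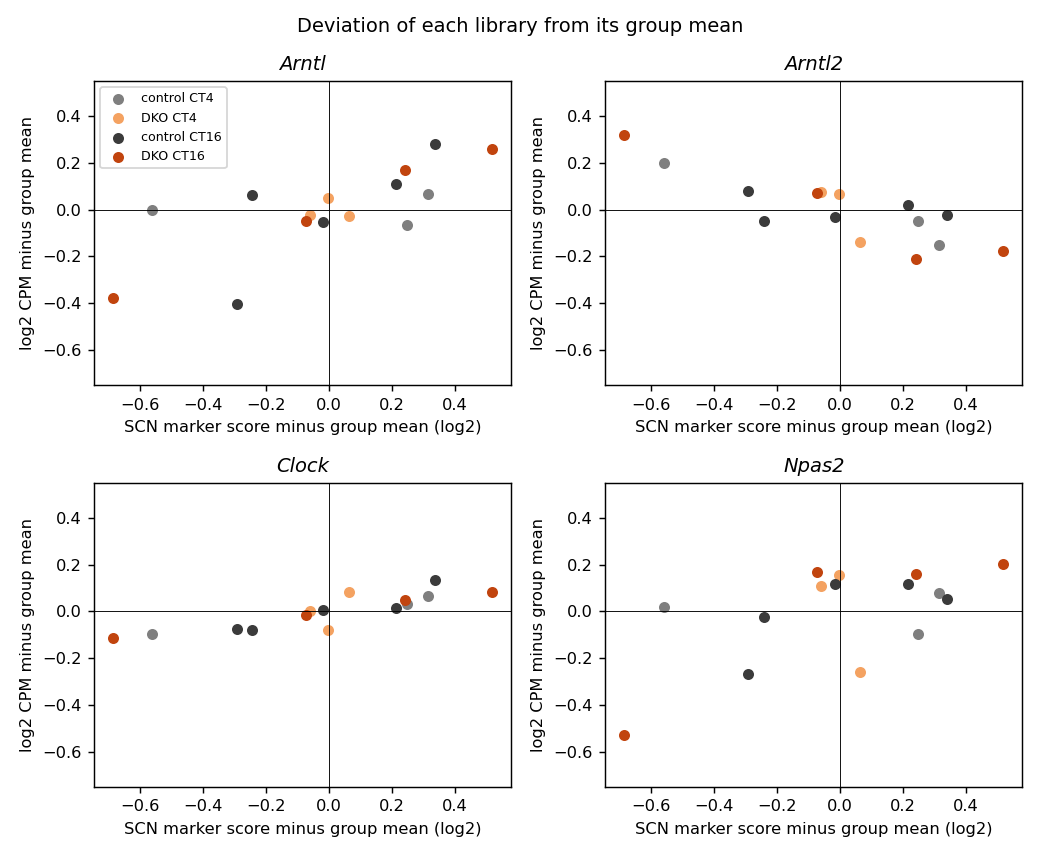
Deviation of each library from its group mean, for the SCN marker score (x axis, log2) and for log2 CPM of each gene (y axis), coloured by group. Points of Arntl, Clock and Npas2 run upward and those of Arntl2 downward, and DKO CT16 replicate 3 is the leftmost point in each panel.

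On a scale per length, TPM (counts scaled by exonic length and then by library), the genes kept a different order from CPM, since the exons of Clock sum to 9925 bases and those of Arntl to 2908. In control at CT4 the mean levels were 42.5 ± 2.25 TPM for Arntl, 40.5 ± 2.48 for Clock, 16.4 ± 2.07 for Arntl2 and 12.7 ± 0.86 for Npas2 (SD, n = 3). Arntl and Clock overlapped there, while Arntl2 lay above Npas2 in each library. Control at CT16 kept that order of the lower pair, with Clock at 38.1 ± 2.40 and Arntl at 37.1 ± 6.22 TPM, again overlapping, then Arntl2 at 14.6 ± 0.57 and Npas2 at 12.2 ± 1.27 (n = 5).

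In DKO the order changed. At CT4 Arntl led with 65.0 ± 1.75 TPM, followed by Clock at 37.4 ± 2.21, Npas2 at 28.5 ± 4.24 and Arntl2 at 18.2 ± 1.47 (n = 3), with no overlap between neighbours. At CT16 Arntl stood at 84.8 ± 15.5 TPM, Npas2 at 46.8 ± 10.0, Clock at 44.6 ± 2.48 and Arntl2 at 15.5 ± 2.77 (n = 4), and the Npas2 and Clock values overlapped. Per length, Npas2 was thus the lowest of the 4 in both control groups. In DKO at CT16 its level on this scale was like that of Clock.

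The ratio of the partner genes puts that in 1 number per library. The Npas2 to Clock ratio of TPM was 0.340, 0.316 and 0.287 in control and 0.596, 0.891 and 0.814 in DKO at CT4. At CT16 it was 0.344, 0.303, 0.332, 0.346 and 0.280 in control and 1.17, 1.11, 0.770 and 1.12 in DKO. Control libraries formed 1 tight band at both times, and 3 of 4 DKO CT16 libraries had more Npas2 than Clock transcript per length. Whether the ratio passes 1, and the shares given next, depend on the summed exonic lengths, 9925 bases for Clock and 4180 for Npas2. The lengths of the transcripts made in the SCN were not measured. As a share, Npas2 made up 23.9% ± 1.5 and 24.3% ± 1.7 of the Clock plus Npas2 transcripts in control at CT4 and CT16, and 43.1% ± 5.1 and 50.7% ± 4.8 in DKO.

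The ratio of Arntl to the sum of its partner genes differed less between genotypes. It was 0.839, 0.797 and 0.762 in control and 1.01, 1.01 and 0.943 in DKO at CT4, and 0.764, 0.818, 0.798, 0.688 and 0.599 in control and 0.845, 0.967, 0.882 and 1.00 in DKO at CT16. No DKO library overlapped the controls of its time. Mean ratios were 0.799 ± 0.039 and 0.988 ± 0.039 at CT4 and 0.733 ± 0.090 and 0.923 ± 0.072 at CT16. Arntl2 made up 27.8% ± 2.9 and 28.6% ± 4.3 of Arntl plus Arntl2 in control at CT4 and CT16, and 21.9% ± 1.3 and 15.9% ± 5.1 in DKO.

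In exact two-sided permutation tests on log2 ratios, both ratios gave p = 0.0159 between genotypes at CT16, the smallest that 4 against 5 libraries allow, and 0.0635 after adjustment over 8 tests. The log2 difference there was 1.69 for Npas2 to Clock and 0.34 for Arntl to its partners. At CT4 both gave an exact p of 0.1, the smallest that 3 against 3 libraries allow (adjusted 0.2), with log2 differences of 1.27 and 0.31. No ratio test passed after adjustment. Between times the differences were small in control (0.03 for Npas2 to Clock, exact p = 0.786, and -0.13 for the Arntl ratio, exact p = 0.357). In DKO they were 0.44 (exact p = 0.171) and -0.10 (exact p = 0.286).

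**Figure D4:**
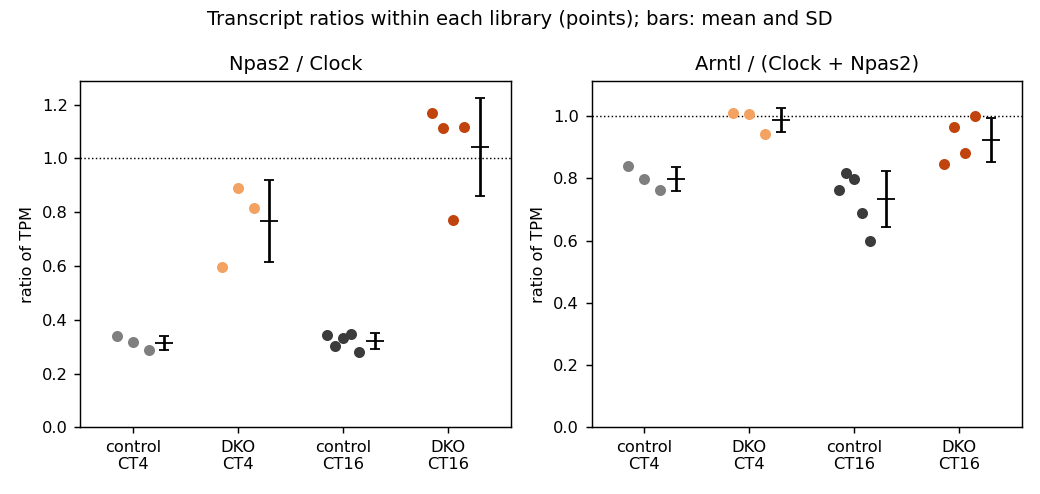
Ratio of TPM within each library (points, y axis from 0), Npas2 to Clock on the left and Arntl to Clock plus Npas2 on the right, with the mean and SD of each group; the dotted line marks equal levels. Control libraries sit between 0.280 and 0.346 in the left panel and DKO libraries between 0.596 and 1.17.

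Of 13 E-box targets of CLOCK and BMAL1, 6 rose in DKO and 0 fell at CT4, against 0.574% of all genes tested called higher. At CT16, 11 rose and 0 fell, against 2.83% of all genes called higher. The list includes the targeted genes Nr1d1 and Nr1d2, whose counts in DKO carry the limit stated above. The list's median log2 change was 0.42 at CT4 and 0.89 at CT16. At CT16 the PAR bZIP output gene Dbp rose by 1.90 ± 0.15 on the log2 scale. Ciart, an inhibitor of the CLOCK and BMAL1 pair, rose by 1.49 ± 0.13 and Bhlhe41, an E-box repressor, by 0.94 ± 0.10. Cry1 and Cry2, which encode cryptochrome inhibitors of the CLOCK and BMAL1 pair, rose by 0.89 ± 0.11 and 0.55 ± 0.05. Per1 (0.37 ± 0.10, adjusted p = 0.0565) and Per2 (-0.01 ± 0.18) did not pass. At CT4 the 6 were Dbp (0.89 ± 0.18), Cry1 (0.70 ± 0.14), Bhlhe40 (0.50 ± 0.10), Nr1d2 (0.47 ± 0.09), Cry2 (0.43 ± 0.06) and Per3 (0.42 ± 0.09). The CT4 count fell to 1 when any of control CT4 replicates 2 and 3 or the 3 DKO CT4 libraries was left out and to 4 without control CT4 replicate 1 or control CT16 replicate 1, whereas the CT16 count stayed at 11 or 12.

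Between times, E-box targets did not follow 1 course. In control libraries 3 of 13 fell from CT4 to CT16, namely Dbp (-0.81 ± 0.16), Nr1d1 (-0.75 ± 0.13) and Bhlhe40 (-0.41 ± 0.09), and 0 rose, against 2.08% of all genes called lower. In DKO libraries 0 fell and 2 rose, Per1 (0.72 ± 0.12) and Nr1d2 (0.45 ± 0.08), against 1.29% of all genes called higher. With the replicate block the DKO count was 1, and without DKO CT16 replicate 3 it was 6. Without control CT4 replicate 1, 2 or 3 the control count of falling genes was 2, 2 and 1.

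Other clock genes known to carry ROR elements were split. Nfil3, a D-box repressor, rose by 1.35 ± 0.16 at CT4 and 1.37 ± 0.13 at CT16, and Cry1 rose with it, as given for the E-box list that also holds it. Rora and Rorb, which encode activating receptors of the same sites, did not pass at either time. Rorb differed by -0.95 ± 0.27 (adjusted p = 0.131) and Rora by -0.75 ± 0.31 (adjusted p = 0.281) at CT4. Between times Nfil3 rose by 0.59 ± 0.15 in control and 0.61 ± 0.15 in DKO, the only one of the 5 listed to do so. The shares of all genes called higher between times were 2.13% in control and 1.29% in DKO. The Nfil3 call between times was lost in 7 of 26 alternatives in control and in 19 of 26, the replicate block included, in DKO.

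**Figure D5:**
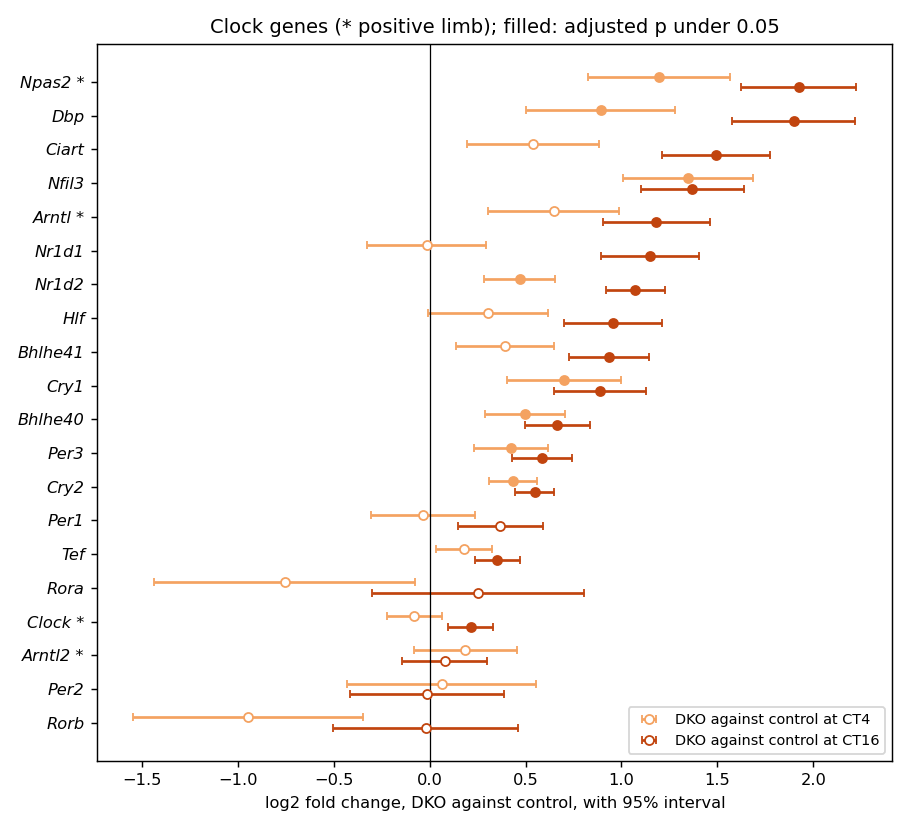
Log2 fold change of DKO against control with its 95% interval (x axis) at CT4 (light) and CT16 (dark) for the 4 activator genes (starred), 13 E-box targets and further clock genes with ROR elements, ordered by the CT16 value. Filled points passed an adjusted p of 0.05; Npas2 and Dbp lead at CT16, and Rora and Rorb show no filled point.

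Of 20 listed cofactors and inhibitors of the activator proteins, 4 rose at CT4 (Cry1, Cry2, Per3 and Bhlhe40), against 0.574% of all genes called higher. At CT16, 6 rose (the same 4 with Ciart and Bhlhe41), against 2.83%, and 0 fell at either time. All of these also stand in the E-box list. The list's median log2 change was -0.02 at CT4 and 0.09 at CT16. General coactivators on the list such as Crebbp, Ep300, Kat2b and Kmt2a were not called by edgeR in either genotype comparison. Between times Bhlhe40 fell in control and Per1 rose in DKO, with the values given above. The CT4 count was 1 when any of control CT4 replicates 2 and 3 or the 3 DKO CT4 libraries was left out.

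Kinases and ubiquitin enzymes that act on BMAL1 and CLOCK proteins showed no genotype call in edgeR among 13 tested genes. Neither DESeq2 nor limma voom called one. Over all genes tested, edgeR called 1.28% at CT4 and 4.66% at CT16. Of the 13 genes, 4 at CT4 and 2 at CT16 had an unadjusted p under 0.05 in edgeR. The share of all genes under that p is not given here for these comparisons. The smallest p at CT4 were those of Prkca (-0.39 ± 0.12, adjusted p = 0.160) and Usp2 (0.31 ± 0.10, adjusted p = 0.174), and at CT16 that of Usp2 (0.23 ± 0.08, adjusted p = 0.127). Usp2, a deubiquitinase, rose from CT4 to CT16 by 0.92 ± 0.10 in control and by 0.85 ± 0.10 in DKO. Among 12 receptors and corepressors of ROR elements, Nr1d2 rose at CT4 and both Nr1d1 (1.15 ± 0.12) and Nr1d2 (1.07 ± 0.07) rose at CT16, with the limit on reading the targeted genes stated above. The shares of all genes called higher were 0.574% at CT4 and 2.83% at CT16. Corepressor genes were not called between genotypes, with Ncor1 at -0.11 ± 0.05 and Hdac3 at 0.04 ± 0.05 at CT4, and 0.00 ± 0.04 and -0.06 ± 0.04 at CT16.

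The wider bHLH-PAS family, to which all 4 members belong, mostly did not pass. Of 15 relatives, Hif3a, a hypoxia-pathway factor, rose in DKO at CT4 (1.10 ± 0.18, adjusted p = 0.0126), and Epas1, the gene for HIF-2α, fell at CT16 (-0.31 ± 0.05, adjusted p = 0.000853). No other relative was called between genotypes, against 1.28% of all genes called at CT4 and 4.66% at CT16. The Hif3a call at CT4 was lost in 5 of 26 alternatives. These were control CT4 replicate 3, DKO CT4 replicate 1 or DKO CT4 replicate 2 left out (adjusted p of 0.0627, 0.0527 and 0.0593), and the fits with myelin and neighbouring-nuclei scores (0.0824) or the SCN score (0.0781). Hif3a also rose from CT4 to CT16, by 2.93 ± 0.17 in control and 1.49 ± 0.16 in DKO. Arnt and Arnt2, general partners of bHLH-PAS proteins, differed by -0.12 ± 0.08 and -0.03 ± 0.06 at CT4 and by 0.08 ± 0.06 and -0.08 ± 0.05 at CT16, and neither passed. In the interaction test edgeR called 0 of the 63 genes of these 6 lists, and 16 of them had an unadjusted p under 0.05, against 2557 of 16910 over all genes. DESeq2 called 7 of the 63 and 360 over all genes, and limma voom called 8 and 420.

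Members resembled each other to different degrees over the 15 libraries. Arntl and Npas2 had a Pearson r of 0.97 in log2 CPM, and 0.76 after each group's mean was subtracted. Arntl and Clock gave 0.65 both ways. Clock and Npas2 gave 0.59, and 0.36 within groups. Arntl2 ran against Clock (-0.52, and -0.75 within groups) and, within groups, against Arntl (-0.64) and Npas2 (-0.48). All of these share libraries and scaling and are given as descriptions.

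Likeness was measured against 13548 tested genes, all with a mean log2 CPM of 1 or more, and those most like Arntl over all libraries were Mgll (r = 0.97), which breaks down monoacylglycerol, Pla2g7 (0.97), Npas2 (0.97), Pdzd2 (0.97) and the glial potassium channel gene Kcnj10 (0.96). Those most like Npas2 included Aloxe3 (0.98), Cry2 (0.98), Arntl (0.97) and Nr1d2 (0.96). Aloxe3 rose by 0.65 ± 0.13 at CT4 and by 1.02 ± 0.10 at CT16 on the log2 scale. Its call at CT4 was lost in 6 of 26 alternatives: without control CT4 replicate 2 or 3, without any 1 of the 3 DKO CT4 libraries, and with the SCN score, at adjusted p of 0.0510 to 0.115. Pla2g7 rose by 1.14 ± 0.13 and Kcnj10 by 0.70 ± 0.07 at CT16. Genes most like Clock, Nup62cl (0.91), Clmn (0.91), Smek2 (0.91), Rnf20 (0.90) and Timeless (0.89), had lower r, as had those most like Arntl2, Akap12 (0.92), Celf2 (0.91), Stx1a (0.91), Camkk2 (0.91) and Etnk2 (0.91).

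Once group means were subtracted, the most similar genes were others: Frmd5 for Arntl (0.95), Clcn6 for Npas2 (0.93), Kcnb2 for Arntl2 (0.95), and for Clock Prokr2 (0.94), the receptor of the SCN peptide PROK2. With Spearman's rho in place of Pearson's r, 1 of the 5 genes most like Arntl, 2 of 5 for Npas2 and 0 of 5 for Clock and Arntl2 stayed in the top 5.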

How the data were processed

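Total RNA of pooled SCN punches was made into TruSeq libraries and read on a HiSeq sequencer, per the labels. Read counts per gene were made by the authors with STAR, featureCounts and the mm10 genome, per the submitters' processing notes. The deposited table holds whole-number counts with each gene's exon coordinates and exonic length. The sources used here name no annotation, strand setting or tool version. Each column was matched to its sample, and so to its group, by its label.

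From the counts, edgeR 4.0.16 in R 4.3.3 gave TMM factors, a filter on low counts and a robust quasi-likelihood fit of the 4 group means over all 15 libraries (11 residual degrees of freedom), with Benjamini-Hochberg adjustment over 16910 genes and a threshold of 0.05. A gene that passed is said to have been called, to have risen or to have fallen. SE is the size of the log2 change over the root of the F statistic. CPM uses TMM-scaled library sizes, log2 CPM adds a prior count of 2, and TPM uses the deposited exonic length. Ratios of TPM were tested with scipy 1.17.1 by exact permutation. Scripts were tested on simulated data. DESeq2 1.42.0, limma 3.58.1 (voom with quality weights), other factors, filters, samples and covariates were alternatives, 26 per gene test and 25 for the interaction. Each ratio test had 18 alternatives: raw counts, shared replicate numbers as pairs, and libraries left out.

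The members and the 12 gene lists were chosen with earlier results of these data known. Named were the members, the called genes of each pathway list (up to 6, or the 2 of smallest p) and the 5 genes most like each member. Some results of single genes are not reported here. Depth was 32580803 counts or more per library. Replicate numbers are shared between groups, so deviations from group means were correlated between same-numbered libraries. Only CT16 against CT4 in DKO gave every r over 0.1 (0.22, 0.14 and 0.11), while r elsewhere ran from -0.40 to 0.21. The sources used here do not say that the numbers mark a shared litter, batch or day. Whether libraries are paired is therefore not known, and the main tests used no block. Libraries of a group differed by more than counting noise, so none was counted as a repeat of another.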

Additional observations from a re-analysis of the deposited data

Results flagged for a closer look

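Both values below come from DKO CT16 replicate 3, the library with the low SCN score and the high score for neighbouring nuclei, and their gap to the nearest library of the group was large for the group's whole range. Npas2 stood at 45.0 CPM there, against 72.4 to 74.7 CPM in the other 3 libraries. The Npas2 to Clock ratio of TPM was 0.770, against 1.11 to 1.17. The limit was a gap of 0.829 of the range, and the gaps were 0.925 for Npas2 and 0.852 for the ratio. By chance a gap past that limit appears in about 1 in 20 groups. Several genes, ratios and groups were screened, and the 2 values share the Npas2 count. The part of tissue content in this gap was not tested.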

How the results depend on the processing

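The rises of Npas2 and Arntl in DKO at CT16 kept their call in all 26 alternatives. The cause was not tested for any change below unless a value is given. Between genotypes, the replicate block left Npas2 called at both times, gave Arntl at CT4 a call (log2 change 0.65, adjusted p = 0.0323) and ended that of Clock at CT16 (0.20, 0.112). Under the same block Npas2 between times in DKO was 0.65, Npas2 between times in control turned to 0.00497, and genes called numbered 104, 503, 379, 159 and 1 (in the order DKO against control at CT4 and CT16, CT16 against CT4 in control and DKO, and the interaction), against 217, 788, 712, 304 and 2 in edgeR without it.

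Arntl at CT4 passed at 0.65 with DESeq2, 0.66 with limma voom, 0.65 with only the 2 groups, 0.83 with myelin and neighbouring scores, 0.65 without the 3 libraries that had stood apart in earlier work (DKO CT16 replicates 3 and 4, control CT4 replicate 1) and 0.93 with the SCN score. Clock at CT16 missed at 0.22 with only the 2 groups, 0.14 with either set of scores and 0.23 without the 3 libraries. Npas2 between times in DKO missed at 0.71 with no filter, 0.70 with only the 2 groups, 0.37 with myelin and neighbouring scores and 0.46 with the SCN score. Between times in DKO, Clock passed at 0.24 with DESeq2, 0.26 with limma voom and 0.26 without the 3 libraries, and Arntl at 0.40 with limma voom. For the interaction, Npas2 passed at 0.72 with DESeq2 and 0.86 without the 3 libraries, and Clock at 0.32 with limma voom and 0.36 without the 3 libraries.

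Signs turned only in uncalled values: with limma voom Npas2 between times in control (0.011); with myelin and neighbouring scores Arntl2 at CT4 (-0.011), Arntl (0.017), Clock (0.018) and Npas2 (0.15) between times in control and the Arntl2 interaction (0.21); without the 3 libraries Arntl2 at CT16 (-0.0047); with the SCN score Arntl2 (-0.064) and Clock (0.061) at CT4, Arntl (0.017), Clock (0.043) and Npas2 (0.14) between times in control and the Arntl2 interaction (0.25).

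Counts of called genes, in the same order, were 584, 1267, 1317, 874 and 360 with DESeq2. With limma voom they were 822 at CT4, 1816 and 1310 between times in control and DKO, and 420 for the interaction. Only the 2 groups gave 828, 368 and, in DKO between times, 47. Myelin and neighbouring scores gave 99 at CT4, 1271 and 178 between times. Leaving out the 3 libraries gave 606 and 419 by genotype, 1184 between times in DKO and 423 for the interaction. The SCN score gave 51 at CT4, 131 between times in DKO and 0 for the interaction; the interaction count was 6 with no filter and 4 with the stricter filter.

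With each library left out in turn, log2 values ran at CT4 from 0.61 to 0.68 for Arntl, 0.12 to 0.30 for Arntl2, -0.13 to -0.04 for Clock and 1.12 to 1.32 for Npas2. At CT16 they ran from 1.09 to 1.29, -0.041 to 0.15, 0.19 to 0.25 and 1.86 to 2.07. Between times in control they ran from -0.23 to -0.07, -0.21 to -0.03, -0.10 to -0.01 and -0.062 to 0.043, and in DKO from 0.29 to 0.49, -0.36 to -0.17, 0.21 to 0.29 and 0.59 to 0.86. The interaction ran from 0.45 to 0.65, -0.23 to -0.04, 0.25 to 0.34 and 0.61 to 0.88. Called genes ran from 16 to 328, 380 to 1318, 235 to 1057, 103 to 1461 and 1 to 298. The Npas2 to Clock ratio between times in control ran from -0.035 to 0.086.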
